A study of Mus musculus with 12 samples.

Results

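The 10 immediate early genes described here were followed across 4 Foxo1 genotypes of a mouse lymphoma line: the FOS genes Fos and Fosb, the JUN genes Jun, Junb and Jund, the EGR genes Egr1, Egr2 and Egr3, and Ier2 and Dusp1. They were chosen by name, with all probe sets that the platform annotation gives to these symbols, which were 14 probe sets. They are 10 of 18193 genes named on the array, and 10 of the 11457 genes kept after a filter on low values. That filter kept a gene when its brightest probe set lay above the median of the array in at least 3 of 12 arrays.

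Immediate early genes are switched on within minutes of a signal such as antigen binding to the B cell receptor, without the need for new protein synthesis. Kinases of the ERK, JNK and p38 cascades act on factors already bound at their promoters, among them SRF with its ELK partners and CREB, and AU-rich sequences then mark many of the transcripts for rapid decay. FOS and JUN proteins pair to form AP-1, EGR proteins bind GC-rich sites through zinc fingers, and Dusp1 encodes a phosphatase that turns MAP kinases off again.

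The cells were BL#19, a murine Burkitt lymphoma line that the submitters call isogenic and that was edited with CRISPR/Cas9. Foxo1, the edited gene, encodes a forkhead transcription factor that AKT phosphorylation sends out of the nucleus. The wt+/mt+ cells had wild-type Foxo1 (wt) and Foxo1 with the substitution T24P (mt). The wt-/mt+ cells had lost the wild-type form, the wt+/mt- cells the T24P form, and the wt-/mt- cells both. Each genotype had 3 arrays, named here as replicates 1 to 3. The labels give no stimulus, so these are levels in cells as cultured and not responses. Most label fields name the lymphoma line, but the description speaks of germinal center B cells. Separate clones or cultures within a genotype are not mentioned, so each p-value weighs a difference against the array-to-array spread alone. How much of that spread is technical was not tested, and a genotype may stand for 1 clone. Within wt-/mt-, the log2 median of kept chromosome 12 genes was -0.66 from the wt+/mt+ mean on replicate 1. It was 0.03 and -0.04 on replicates 2 and 3. Whether these arrays came from different cells was not tested.

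All values are log2 levels made with RMA, a method that corrects background, scales the arrays to each other and summarises the probes of a set. Changes are differences of log2 means with limma's standard error (SE), and a change was called at an adjusted p under 0.05 over all 11457 kept genes. RNA came from whole cultures, so fewer cells with a transcript and less transcript per cell cannot be told apart.

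Promoter sequence ending at the annotated start was used for 7 of the members, from RefSeq's GRCm38.p6 table. This gave 1 window of 250 bases for 6 genes and 5 windows for Egr2. Egr1, Egr3 and Ier2 were not searched. Each window was searched on both strands for the CArG box bound by SRF (found in 1.47% of 32851 windows of the same length), the cyclic AMP response element TGACGTCA (1.55%), the AP-1 element TGANTCA (6.75%), the EGR element GCGNGGGCG (4.70%), the forkhead element GTAAACA (3.17%) and the TATA box TATAAA (12.4%). The stretches printed here belong to members whose levels the results turn on or that held a match. They are written 5′ to 3′ on the strand of the gene, with matches in capitals.
Fos, chr12:85473640-85473889, plus strand: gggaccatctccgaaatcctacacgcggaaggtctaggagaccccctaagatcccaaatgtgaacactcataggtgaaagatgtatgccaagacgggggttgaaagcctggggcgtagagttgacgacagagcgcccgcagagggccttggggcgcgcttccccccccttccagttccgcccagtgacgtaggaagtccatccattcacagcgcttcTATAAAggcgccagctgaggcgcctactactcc
Fosb, chr7:19310077-19310105, minus strand: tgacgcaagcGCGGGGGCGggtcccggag
Junb, chr8:84978866-84978894, minus strand: ctcgtggccgcTGTTTACaaggacacgcg
Jund, chr8:70697489-70697738, plus strand: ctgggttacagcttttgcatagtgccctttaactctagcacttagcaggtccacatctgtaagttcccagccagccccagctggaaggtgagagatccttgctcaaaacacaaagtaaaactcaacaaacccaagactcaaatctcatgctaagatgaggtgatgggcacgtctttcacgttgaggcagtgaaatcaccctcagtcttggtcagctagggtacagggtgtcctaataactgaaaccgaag
Egr2, CArG box at chr10:67537494-67537503, plus strand: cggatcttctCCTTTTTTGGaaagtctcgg
Egr2, CArG box at chr10:67537797-67537806, plus strand: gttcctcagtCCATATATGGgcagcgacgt
Dusp1, chr17:26508597-26508626, minus strand: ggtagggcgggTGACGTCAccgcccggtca
Counting back from -1 at the base before the start, the Fos window held a TATA box at positions -33 to -28. Fosb held an EGR element at positions -50 to -42, Junb a forkhead element read on the opposite strand at positions -135 to -129, and Dusp1 a cyclic AMP response element at positions -143 to -136. Egr2 held a CArG box at 2 places, the second of them shared by 3 overlapping windows. The Jun and Jund windows held none of these letters. A match is a description of the sequence, and binding was not measured here.

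Foxo1 RNA itself, by its brightest probe set, had mean levels of 11.64 for wt+/mt+, 11.46 for wt-/mt+, 11.87 for wt+/mt- and 9.99 for wt-/mt-. It fell by 1.65 on the log2 scale after loss of both forms (SE 0.23, adjusted p = 0.0014 in limma's fit over 34945 named probe sets), while neither single loss passed the test (-0.18 and 0.24). Where the edits lie relative to these probes is not given, so the RNA level checks only the double loss. Of 8 measured B cell markers, 8 lay above the array median on every array, and their summed linear level was 77300 to 80300 in wt+/mt+ against 47500 to 67000 in wt-/mt-. Of 5 germinal center markers 4 did so, against 3 of 6 for T cells, 1 of 5 for NK cells (Eomes), 2 of 9 for myeloid cells, 0 of 6 for stromal cells and 0 of 3 for erythroid cells. Summed germinal center levels were 13600 to 15300 in wt+/mt+ and 7910 to 15600 in wt-/mt-. Those of the NK list, which holds Eomes, were 2220 to 2410 and 339 to 4020, so the wt-/mt- arrays differed widely. The summed myeloid level was 572 to 640 in wt+/mt+ and 667 to 1120 in wt-/mt-. Among germinal center markers, Mef2b went from a mean of 8.22 in wt+/mt+ to 10.39 in wt-/mt-, and Gcsam from 6.46 to 4.46. Bcl6 went from 13.36 to 12.67, Fas from 9.11 to 8.30 and S1pr2 from 11.48 to 11.10. Cd68 moved most among the myeloid markers, with mean log2 levels of 6.11 for wt+/mt+, 7.18 for wt+/mt- and 8.04 for wt-/mt-. From wt+/mt+ to wt-/mt- cells, S100a8 went from 4.52 to 5.05 and Adgre1 from 7.17 down to 6.79. Other myeloid markers stayed nearer their wt+/mt+ mean, such as Csf1r with 7.11 and 7.16. The part of other cells in the results below was not tested. Array medians lay between 6.08 and 6.25. Replicates 1 and 2 of wt+/mt- stood apart by their actin 3′ to 5′ log2 ratio, 2.17 and 1.71 against 1.06 to 1.29 on the other 10 arrays. The spiked control bioD read 12.97 to 13.52 on the arrays labelled mt- and 13.83 to 14.04 on those labelled mt+, so it divided the arrays as the mutant form did. Comparisons of mt- with mt+ arrays, among them wt-/mt- against wt+/mt+ and against wt-/mt+, cross this divide. Its part in their calls cannot be told apart from that of the mutant form.

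In cells without either form of Foxo1, Egr2 and Jund were lower and Egr3 was higher than in wt+/mt+ cells, and the other 7 members did not pass the test. Called lower were 2 of 10 members, where 9.94% of all kept genes were, and called higher was 1, where 12.2% were. The median change of the 10 members was -0.40 against 0.05 over all kept genes. Against wt+/mt- cells, the same wt-/mt- arrays had lower Fosb, Jund and Egr2, which is 3 of 10 members where 8.23% of kept genes were called lower, and 0 were higher, where 6.35% were. The change was below zero for 10 of 10 members, with a median of -0.91 against -0.01 over all kept genes. Replicates 1 and 2 of wt+/mt- were the arrays with the high actin ratios. With the actin ratio as a covariate, 0 members were called in this comparison. Calls over all kept genes then moved from 1671 to 287. Against wt-/mt+ cells, Egr2 alone was called, lower, where 11.1% of kept genes were lower and 9.71% higher, and the median change of the members was -0.36 against 0.01. These 3 comparisons share the wt-/mt- arrays, the genotype with the widest spread. The fit was also run with 1 weight for each genotype, 2.18 for wt+/mt+, 1.68 for wt-/mt+, 1.08 for wt+/mt- and 0.253 for wt-/mt-. Limma then called 0 of 10 members in any of the 3 comparisons, as with only the genotypes compared in the fit. Calls over all kept genes moved too. From 2534, 1671 and 2381 in the order above they went to 866, 399 and 923 with the weights. With only the genotypes compared they were 815, 115 and 519. With each array centred on its median, the same members were called, while calls over all kept genes moved from 1395 higher and 1139 lower to 880 and 1475 after loss of both forms, and from 1113 and 1268 to 854 and 1475 against wt-/mt+. In limma's F test over the 4 genotypes, Egr2, Egr3 and Jund were called, 3 of 10 members where 19.2% of kept genes were.

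**Figure D1:**
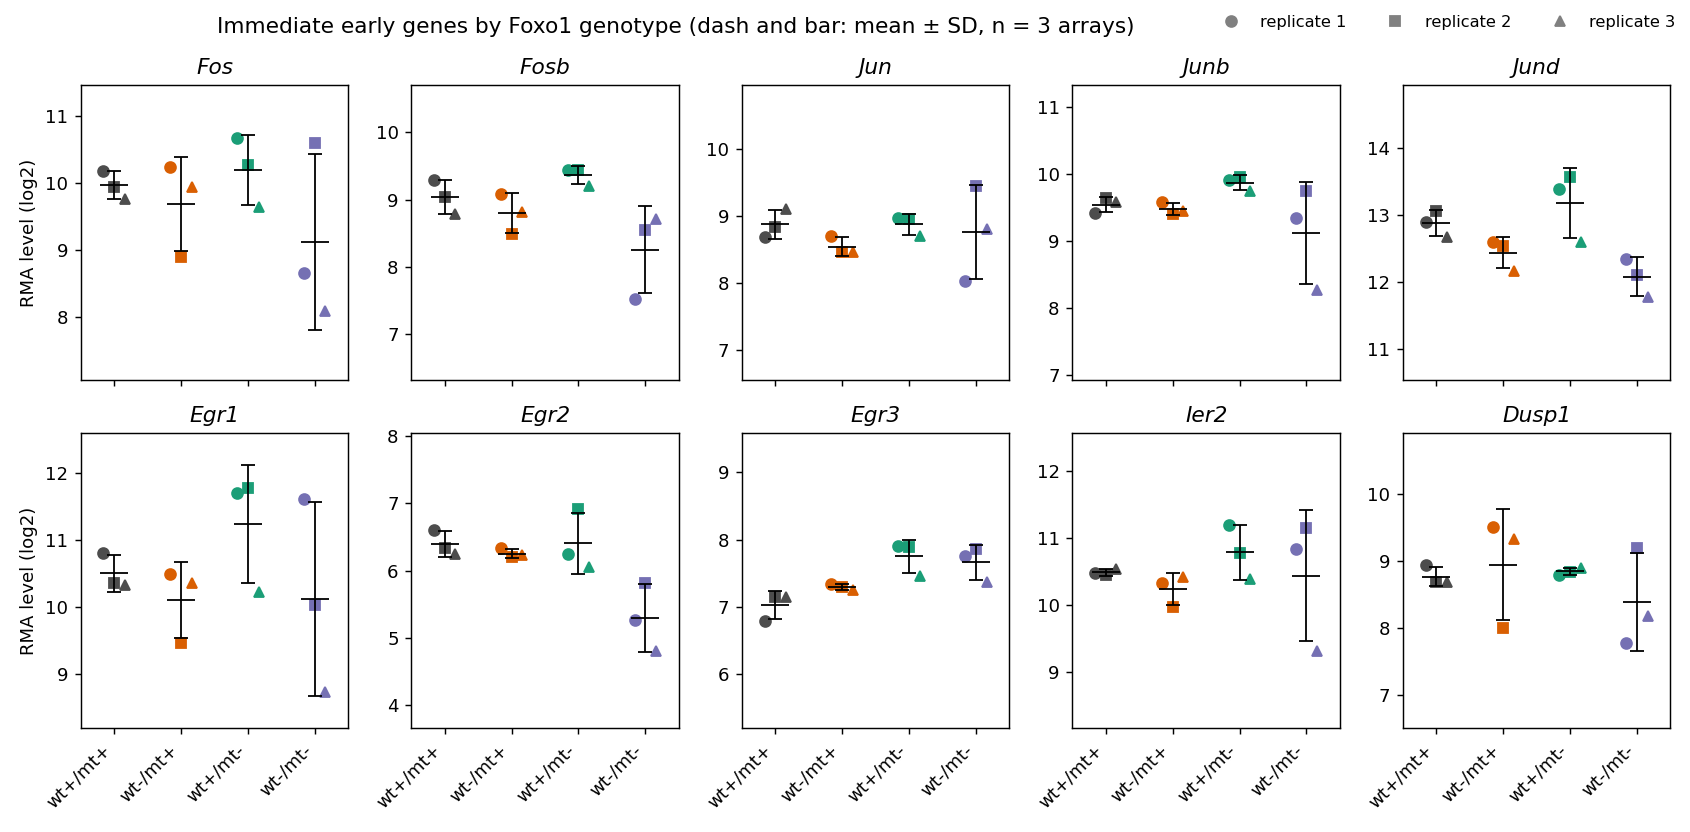
RMA levels (log2) of the 10 members, 1 panel a gene, with 1 point for each array, its shape giving the replicate, and a dash and bar for the mean ± SD of 3 arrays. Axes span the same number of log2 units in every panel, and the wt-/mt- points of Egr2 (4.81 to 5.82) and Jund (11.77 to 12.35) lie below all points of wt+/mt+.

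**Figure D2:**
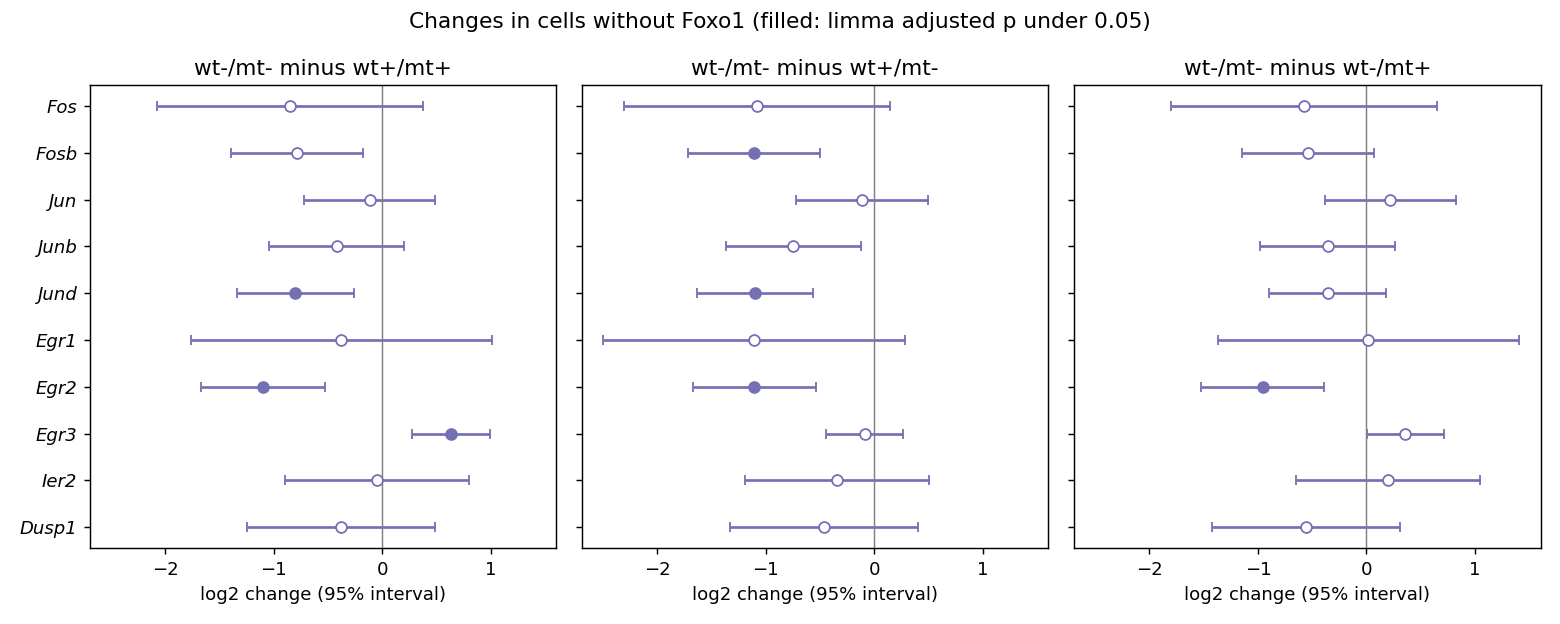
Change of each member (log2, points) with its 95% interval from limma's fit (bars) for wt-/mt- cells against wt+/mt+, wt+/mt- and wt-/mt+ cells. Filled points have an adjusted p under 0.05 over 11457 genes, and the intervals of Fos and Egr1 are the widest of the 10.

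Fos, at 12:85473890-85477274 (GRCm38.p6), encodes the founding AP-1 subunit, which cannot bind DNA without a JUN partner. Its levels were 10.18, 9.94 and 9.77 on the wt+/mt+ arrays, 10.23, 8.90 and 9.94 on those of wt-/mt+, 10.67, 10.27 and 9.64 on those of wt+/mt-, and 8.66, 10.59 and 8.09 on those of wt-/mt-. The second wt-/mt- array was the highest but 1 of all 12 and the other 2 were the lowest of all, so the genotype overlapped every other. Fos had a change of -0.85 after loss of both forms (SE 0.56, adjusted p = 0.287), which was not called. Without wt-/mt- replicate 2 the change was -1.59 and called (adjusted p = 0.0157), and it was then also called against wt+/mt- (-1.82, adjusted p = 0.00979) and against wt-/mt+ (-1.31, adjusted p = 0.0338). Without replicate 3 the changes were instead -0.34 (adjusted p = 0.662), -0.57 against wt+/mt- (adjusted p = 0.512) and -0.06 against wt-/mt+ (adjusted p = 0.944), none called. In wt-/mt- replicate 1 the median of the 416 kept genes of chromosome 12, where Fos lies, differed from the wt+/mt+ mean by -0.66, and its part in the Fos level of that array was not tested.

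Fosb, at 7:19302696-19310118, encodes a second FOS protein with the same need for a JUN partner. Its levels were 9.29, 9.04 and 8.79 on the wt+/mt+ arrays, 9.08, 8.49 and 8.82 on those of wt-/mt+, 9.43, 9.45 and 9.20 on those of wt+/mt-, and 7.51, 8.55 and 8.71 on those of wt-/mt-. All wt-/mt- arrays lay below all wt+/mt+ and wt+/mt- arrays, and they overlapped wt-/mt+. Against wt+/mt- the level fell by 1.11 on the log2 scale (SE 0.28, adjusted p = 0.0245), a 2.15-fold difference. Against wt+/mt+ the change was -0.78 (SE 0.28, adjusted p = 0.0635), not called with all arrays, and called without wt-/mt- replicate 2 (-0.93, adjusted p = 0.0458) or replicate 3 (-1.01, adjusted p = 0.0246). Without replicate 1, the lowest array, it was -0.41 (adjusted p = 0.125), and the change against wt+/mt- was then -0.73 (adjusted p = 0.0222). The call against wt+/mt- ended without wt+/mt- replicate 1 (-1.07, adjusted p = 0.0835) or replicate 2 (-1.06, adjusted p = 0.0867), the arrays with the high actin ratios, and without both (-0.95, adjusted p = 0.419). From wt+/mt- down, the order of the genotype means was 9.36 ± 0.14, then wt+/mt+ with 9.04 ± 0.25, wt-/mt+ with 8.79 ± 0.30 and wt-/mt- with 8.26 ± 0.65 (SD, n = 3), and no neighbours in that order differed by the test.

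Jun, at 4:95049036-95052222, encodes the AP-1 subunit that can pair with itself or with FOS. By its brighter probe set it read 8.68, 8.84 and 9.11 on the wt+/mt+ arrays, 8.70, 8.46 and 8.47 on those of wt-/mt+, 8.97, 8.95 and 8.70 on those of wt+/mt-, and 8.04, 9.44 and 8.81 on those of wt-/mt-. The lowest and the highest of all 12 values were both wt-/mt- arrays. The change after loss of both forms was -0.12 (95% interval -0.72 to 0.49, adjusted p = 0.787), and no comparison of Jun was called. Against wt-/mt+ it was 0.22 (adjusted p = 0.604), called as 0.58 without wt-/mt- replicate 1 (adjusted p = 0.0491) and below zero without replicate 2 (-0.12). The second Jun probe set, with genotype means of 6.41 to 7.05, was not called after loss of both forms (0.43, adjusted p = 0.196).

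Junb, at 8:84976909-84978748, encodes a JUN protein that in many settings competes with Jun for partners. Levels were 9.42, 9.63 and 9.58 on the wt+/mt+ arrays, 9.58, 9.41 and 9.45 on those of wt-/mt+, 9.92, 9.95 and 9.75 on those of wt+/mt-, and 9.35, 9.75 and 8.27 on those of wt-/mt-. Apart from the last array, which was more than 1 log2 unit below every other, the values stayed within a narrow band. The change against wt+/mt- was -0.75 (SE 0.28, adjusted p = 0.100), not called. Without wt-/mt- replicate 2 it was -1.06 and called (adjusted p = 0.013), as was the change after loss of both forms (-0.73, adjusted p = 0.0479), which was 0.006 without replicate 3. The change against wt+/mt- was -0.32 without replicate 3 (adjusted p = 0.128). On wt-/mt- replicate 3 the median of the 639 kept genes of chromosome 8, which holds Junb, Jund and Ier2, was -0.27 from the wt+/mt+ mean, against 0.05 and 0.19 on the other wt-/mt- arrays, and its part in these levels was not tested. With each array centred per chromosome, the Junb change against wt+/mt- was -0.60 and called (adjusted p = 0.0441).

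Jund, at 8:70697739-70700616, encodes the JUN protein that many resting cells already make, and its RNA is less bound to a stimulus than that of the other members. Its brighter probe set read 12.90, 13.06 and 12.67 on the wt+/mt+ arrays, 12.60, 12.54 and 12.17 on those of wt-/mt+, 13.38, 13.57 and 12.59 on those of wt+/mt-, and 12.35, 12.11 and 11.77 on those of wt-/mt-. All wt-/mt- arrays lay below all wt+/mt+ and wt+/mt- arrays, and overlapped wt-/mt+. The level fell by 0.80 on the log2 scale after loss of both forms (SE 0.24, adjusted p = 0.0391) and fell by 1.10 against wt+/mt- (SE 0.24, adjusted p = 0.015), a 2.14-fold difference. From the top, the order of genotype means was wt+/mt- with 13.18 ± 0.52, wt+/mt+ with 12.88 ± 0.20, wt-/mt+ with 12.43 ± 0.23 and wt-/mt- with 12.08 ± 0.29 (SD, n = 3), with no neighbours called apart. The difference of wt-/mt+ from wt+/mt-, -0.74, was not called (SE 0.24, adjusted p = 0.180), and was called without wt+/mt- replicate 3 (-1.04, adjusted p = 0.0464).

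The second Jund probe set went the other way. It read 5.10, 5.21 and 5.26 on the wt+/mt+ arrays, 5.42, 5.33 and 5.49 on those of wt-/mt+, 5.52, 5.63 and 5.30 on those of wt+/mt-, and 5.59, 5.91 and 5.77 on those of wt-/mt-, below the array median on all 12 arrays. After loss of both forms it rose by 0.57 (SE 0.11, adjusted p = 0.00901 over 34945 named probe sets, of which 8.74% were called higher). Where the probes of either set lie in the transcript is not in the sources used here. With the mean of both sets, the Jund change after loss of both forms was -0.12 (adjusted p = 0.598) and against wt+/mt- -0.41 (adjusted p = 0.0874). The call of the brighter set after loss of both forms also ended without any 1 of wt+/mt+ replicate 1 (adjusted p = 0.0982), 2 (0.129) or 3 (0.0628), wt-/mt+ replicate 1 (0.0536) or 2 (0.0546), and wt-/mt- replicate 2 (0.0561) or 3 (0.0923), with changes of -0.90 to -0.65. Against wt+/mt- it ended without wt+/mt- replicate 1 (-1.0, adjusted p = 0.0648) or 2 (-0.90, adjusted p = 0.0659), and without both it was -0.51 (adjusted p = 0.483).

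Egr1, on chromosome 18, encodes the EGR protein most often read out as a marker of ERK activity. Its levels were 10.81, 10.36 and 10.33 on the wt+/mt+ arrays, 10.49, 9.46 and 10.36 on those of wt-/mt+, 11.70, 11.78 and 10.22 on those of wt+/mt-, and 11.61, 10.03 and 8.73 on those of wt-/mt-. The wt-/mt- arrays alone covered nearly the whole range of the 12 arrays, with a mean of 10.12 ± 1.44 (SD, n = 3). Egr1 was not called in any comparison: the change was -0.38 after loss of both forms (95% interval -1.76 to 1.01, adjusted p = 0.692) and -1.11 against wt+/mt- (adjusted p = 0.270). The latter was -1.85 and called without wt-/mt- replicate 1 (adjusted p = 0.0309). The high wt+/mt- values were those of the 2 arrays with the high actin ratios, and without both of them the change against wt+/mt- was -0.09 (adjusted p = 0.979).

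Egr2, at 10:67534469-67542188, encodes a zinc finger factor that lymphocytes make after antigen receptor signals and that also restrains their activation. Its brighter probe set read 6.61, 6.33 and 6.24 on the wt+/mt+ arrays, 6.33, 6.19 and 6.23 on those of wt-/mt+, 6.24, 6.92 and 6.05 on those of wt+/mt-, and 5.26, 5.82 and 4.81 on those of wt-/mt-. All 3 wt-/mt- arrays lay below all 9 others, and the 3 genotypes that kept a form of Foxo1 overlapped each other. The level fell by 1.10 on the log2 scale after loss of both forms (SE 0.26, adjusted p = 0.0137), a 2.14-fold difference. It fell by 1.11 against wt+/mt- (SE 0.26, adjusted p = 0.0184) and fell by 0.96 against wt-/mt+ (SE 0.26, adjusted p = 0.025). It was the only member called in all 3 comparisons. The means were 6.40 ± 0.46 for wt+/mt-, 6.39 ± 0.19 for wt+/mt+, 6.25 ± 0.07 for wt-/mt+ and 5.30 ± 0.51 for wt-/mt- (SD, n = 3). The first 3 were not called apart, and the last was called against each. The probe set lay above the array median on 7 of 12 arrays, so the signal was low, and no detection calls were used here.

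The second Egr2 probe set read 5.50, 5.82 and 5.90 on the wt+/mt+ arrays, 5.93, 5.47 and 5.47 on those of wt-/mt+, 5.96, 6.37 and 5.62 on those of wt+/mt-, and 4.64, 5.65 and 4.41 on those of wt-/mt-. It was low on the same wt-/mt- arrays as the first, replicates 1 and 3, with replicate 2 inside the range of the others. Its changes were -0.84 after loss of both forms (adjusted p = 0.0725), -1.08 against wt+/mt- (adjusted p = 0.0492, where 4.05% of named probe sets were called lower) and -0.73 against wt-/mt+ (adjusted p = 0.130). The call of the brighter set after loss of both forms ended without wt+/mt+ replicate 1 (-0.99, adjusted p = 0.0536), and that against wt+/mt- without wt+/mt- replicate 2 (-0.85, adjusted p = 0.0711). The latter also ended with the actin ratio as a covariate (-0.97, adjusted p = 0.200) and without both wt+/mt- arrays of high actin ratio (-0.75, adjusted p = 0.381). Against wt-/mt+ it ended without any 1 of wt-/mt+ replicate 1 (-0.92, adjusted p = 0.0753), 2 (-0.98, adjusted p = 0.0684) or 3 (-0.96, adjusted p = 0.0661), or wt-/mt- replicate 3 (-0.71, adjusted p = 0.0568).

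Egr3, at 14:70077317-70082613, encodes a further EGR protein of activated lymphocytes. Its brighter probe set read 6.79, 7.14 and 7.15 on the wt+/mt+ arrays, 7.35, 7.30 and 7.26 on those of wt-/mt+, 7.90, 7.89 and 7.47 on those of wt+/mt-, and 7.76, 7.85 and 7.37 on those of wt-/mt-. Every array that had lost a form of Foxo1 lay above every wt+/mt+ array. Every array labelled mt- lay above every array labelled mt+, though narrowly, with 7.37 against 7.35 at the nearest. How many kept genes part the arrays without overlap was not counted, here or for Fosb, Jund and Egr2. Egr3 rose by 0.64 after loss of both forms (SE 0.16, adjusted p = 0.0192), a 1.55-fold difference, opposite to Egr2. Loss of the mutant form alone gave 0.72 (SE 0.16, adjusted p = 0.0912), not called with all arrays and called without wt-/mt- replicate 3 (adjusted p = 0.0415), which enters only through the shared spread. Against wt-/mt+ the change was 0.36 (adjusted p = 0.138), called as 0.50 without that array (adjusted p = 0.0368). The call after loss of both forms ended without wt+/mt+ replicate 1 (0.52, adjusted p = 0.0739). The bioD control divided the arrays the same way, lower on those labelled mt-, and its part in the Egr3 level cannot be told apart from that of the mutant form. The second Egr3 probe set, at 5.14 to 6.73 over the 12 arrays, gave 0.01 after loss of both forms (adjusted p = 0.981). With the mean of both sets the change was 0.32 and not called (adjusted p = 0.195).

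Ier2, at 8:84661331-84662852, is an intronless immediate early gene whose protein acts in the nucleus. It read 10.48, 10.44 and 10.53 on the wt+/mt+ arrays, 10.32, 9.97 and 10.42 on those of wt-/mt+, 11.19, 10.78 and 10.38 on those of wt+/mt-, and 10.83, 11.15 and 9.32 on those of wt-/mt-. Its spread was widest in the cells labelled mt-, and the last array was the lowest of 12. No comparison of Ier2 was called with all arrays, and the change after loss of both forms was -0.05 (95% interval -0.90 to 0.80, adjusted p = 0.941). Against wt-/mt+ it was 0.20 (adjusted p = 0.747), and 0.76 and called without wt-/mt- replicate 3 (adjusted p = 0.0285).

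Dusp1, at 17:26505591-26508472, read 8.93, 8.68 and 8.68 on the wt+/mt+ arrays, 9.50, 8.00 and 9.33 on those of wt-/mt+, 8.80, 8.84 and 8.90 on those of wt+/mt-, and 7.77, 9.20 and 8.18 on those of wt-/mt-. The wt+/mt- arrays were within 0.1 of each other, while replicate 2 of wt-/mt+ was low and replicate 2 of wt-/mt- was high within its genotype. Dusp1 was not called in any comparison, with a change of -0.38 after loss of both forms (95% interval -1.25 to 0.48, adjusted p = 0.505).

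Loss of 1 form with the other present changed no member by the test. Loss of the mutant form gave 0 calls by limma among 10 members, 1 with an unadjusted p under 0.05, where 0.183% of kept genes were called. Loss of the wild-type form gave 0 calls, 0 with an unadjusted p under 0.05, where 0% were called, and changes from -0.44 for Jund to 0.28 for Egr3. Cells with the mutant form alone against cells with the wild-type form alone gave 0 calls, 2 with an unadjusted p under 0.05 (Jund and Egr3), where 0.0873% were called. In that comparison 9 of 10 members had a change below zero, from -1.13 for Egr1 to 0.10 for Dusp1. These tests share their spread with the wt-/mt- arrays. With 1 weight for each genotype, 950 kept genes were called with loss of the mutant form instead of 21, among them Egr3. With loss of the wild-type form 19 were called instead of 0. Between the single forms 835 were called instead of 10, with 0 members. Whether the change with loss of 1 form depended on the other was tested as the interaction of both losses, with 0 calls, 1 with an unadjusted p under 0.05, where 3.14% were called. Its lowest adjusted p was that of Egr2 (-0.96, SE 0.36, adjusted p = 0.194), called only without wt-/mt- replicate 2 (-1.22, adjusted p = 0.0402) among the alternatives run.

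The members varied more between arrays of 1 genotype than most genes did. The median SD over 3 arrays was 0.202 for the members against 0.0952 for all kept genes in the wt+/mt+ cells, 0.237 against 0.111 for wt-/mt+, 0.326 against 0.133 for wt+/mt- and 0.717 against 0.261 for wt-/mt-. Of the 10 members, 9, 7, 8 and 9 in these genotypes lay above the all-gene median SD, and 3, 5, 5 and 6 were in the top 10%. Pooled over genotypes, the residual SD of Egr1 was 0.902 (percentile 99.1 of kept genes) and that of Fos 0.793 (percentile 98.6). Dusp1 and Ier2 followed with 0.556 and 0.543 (percentiles 96.3 and 96.0), and Egr3 had the smallest with 0.207 (percentile 57.4). These are descriptions with no test.

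**Figure D3:**
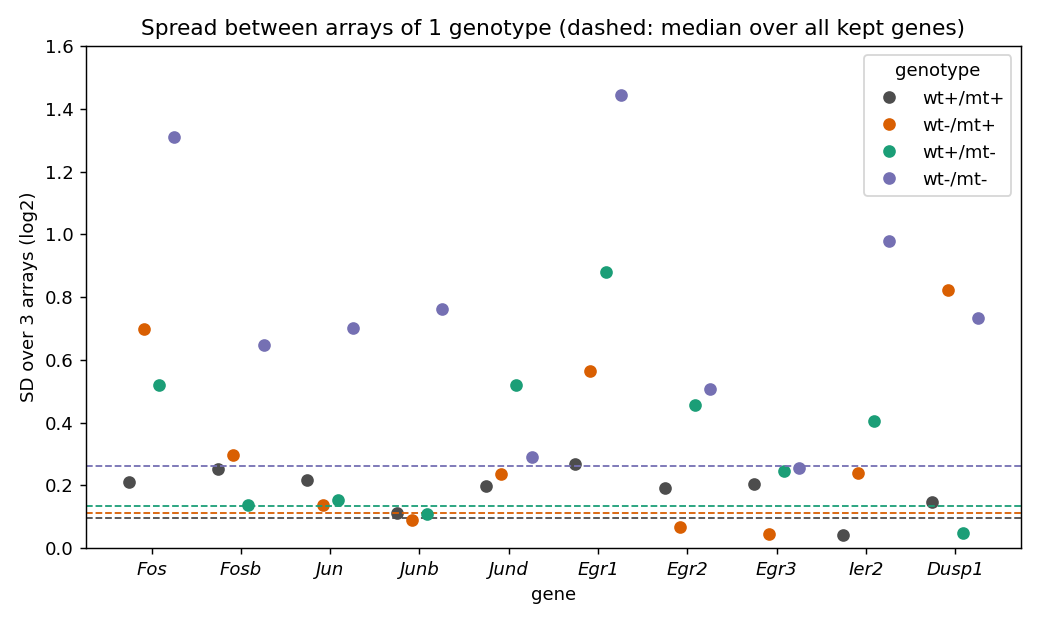
SD over 3 arrays (log2) of each member, 1 colour for each genotype, with dashed lines at the median SD of all kept genes in that genotype. In wt-/mt- cells Egr1 (1.44) and Fos (1.31) have the highest values, and Egr3 (0.257) lies just below the dashed line at 0.261.

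On some arrays most members were high or low together within their genotype, which is given by counts with no test. Replicate 1 of wt-/mt+ was the highest of its genotype for 9 of 10 members, as it was for 29.4% of kept genes, and replicate 2 was the lowest for 8, as for 32.2%. Replicate 3 of wt+/mt- was the lowest for 9, as for 34.6%, and it was the array of that genotype without a high actin ratio. In wt-/mt- replicate 2 was the highest for 7, as for 36.5%, and replicate 3 the lowest for 7, as for 39.6%. Among the wt+/mt+ arrays, replicate 1 was the highest for 5 members, as for 25.3% of kept genes, and the lowest for 3, as for 54.6%. Replicate 3 of wt+/mt+ was the lowest for 6, as for 26%, and the highest for 3, as for 39.5%. Among 38 other kept primary response genes, wt-/mt- replicate 2 was the highest for 21 and replicate 3 the lowest for 20. Of the other arrays named, wt-/mt+ replicate 1 was the highest for 19 of the 38, its replicate 2 the lowest for only 13, and wt+/mt- replicate 3 the lowest for 16. Fosb differed from Fos on these arrays: within wt-/mt-, Fos deviated from the mean of the genotype by 1.48 and -1.02 on replicates 2 and 3, while Fosb deviated by 0.29 and 0.45.

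**Figure D4:**
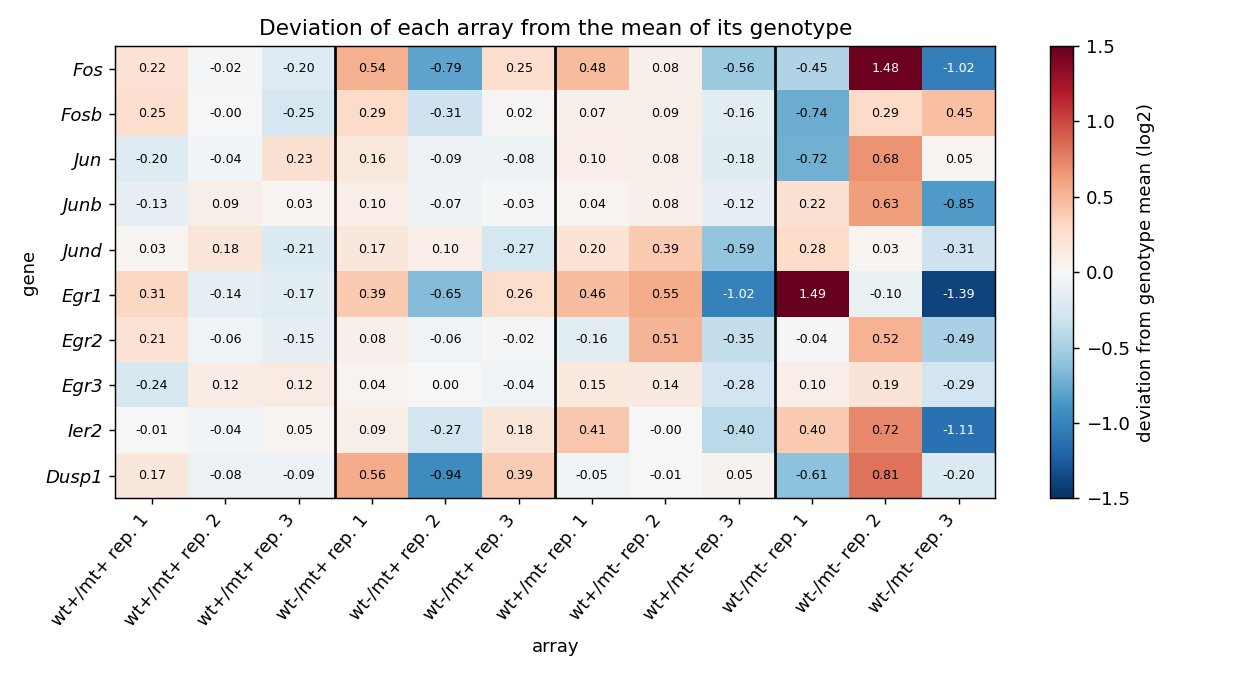
Deviation of each array from the mean of its genotype (log2, colour and number) for the 10 members in rows and the 12 arrays in columns, with lines between genotypes. The column of wt-/mt- replicate 2 is mostly red (Fos 1.48, Dusp1 0.81, Ier2 0.72) and that of replicate 3 mostly blue (-1.39 for Egr1, -1.11 for Ier2 and -1.02 for Fos).

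For the 5 members whose genotype means ranged over at least 1 log2 unit, the 2 kept genes with the nearest pattern were found by the root mean square difference between the 4 centred genotype means. Gdap10 was nearest to Fos (0.006) and Fosb (0.033), and Fos and Fosb were each other's second (0.035). Rbpms (0.046) and Ebf3 (0.053) were nearest to Jund, and Dusp4 (0.073) and Tsc22d1 (0.096) to Egr1. Nearest to Egr2 were the B cell surface receptor gene Cd72 (0.011) and Gm5817 (0.030). Each likeness rests on 4 means and 12 arrays. The nearest of 11457 kept genes were taken, so a small difference is no result in itself. Fos and Egr1 were not called in any comparison with all arrays, so the patterns matched were not themselves established for them.

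Among the other AP-1 and bZIP genes, 11 of 14 listed genes were kept, and the largest change was that of Maf, a bZIP factor, which fell by 3.09 on the log2 scale after loss of both forms (SE 0.28, adjusted p = 7.77e-05), from a mean of 9.79 to 6.70. Maf was called lower also against wt+/mt- (-2.94) and wt-/mt+ (-3.05), and in the interaction of both losses (-2.91, adjusted p = 0.00406). Over all alternatives the changes nearest to zero were -0.77, -0.90 and -0.74 in these 3 comparisons, each still called, and the call of the interaction ended without both wt+/mt- arrays of high actin ratio. After loss of both forms Jdp2, which encodes a JUN-binding repressor, rose by 1.93 (SE 0.60, adjusted p = 0.0423) and Batf, an AP-1 factor that pairs with JUN proteins and IRF4, by 0.40 (adjusted p = 0.0328). The Jdp2 call ended without any 1 of 11 arrays. In all, 2 of the 11 were called higher and 1 lower after loss of both forms, 0 and 1 against wt+/mt-, and 1 (Mafk, a small Maf protein, 0.43) and 1 against wt-/mt+. Over all kept genes 12.2% were called higher and 9.94% lower after loss of both forms. These shares were 6.35% and 8.23% against wt+/mt-, and 9.71% and 11.1% against wt-/mt+.

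Of the 3 kept genes of the other EGR genes and NAB corepressors, Nab2, whose protein binds EGR proteins and represses their targets, rose by 0.78 against wt-/mt+ (SE 0.16, adjusted p = 0.00714), and none was called in the other 2 comparisons. Of 38 other primary response genes, 4 were called higher and 10 lower after loss of both forms, 0 and 8 against wt+/mt-, and 4 and 9 against wt-/mt+, with median changes of -0.06, -0.25 and -0.03. For all kept genes the shares in the same order were 12.2% higher and 9.94% lower, 6.35% and 8.23%, and 9.71% and 11.1%. After loss of both forms Rgs2, which dampens G protein signals, fell by 1.72 (SE 0.28, adjusted p = 0.00239) and Csrnp1 fell by 1.39 (SE 0.16, adjusted p = 0.000365). Id2, an inhibitor of E proteins, rose by 2.06 (SE 0.56, adjusted p = 0.0238) and Nfkbid, a nuclear I kappa B protein, by 1.34 (SE 0.32, adjusted p = 0.0156). Klf2, a zinc finger factor of lymphocyte trafficking, fell by 1.14 and Mcl1, a survival protein of the BCL2 family, fell by 1.07 against wt+/mt-. The Mcl1 call (adjusted p = 0.0364) ended without any 1 of 9 arrays, and the Klf2 call with 1 weight for each genotype (adjusted p = 0.118). In the interaction 3 of the 38 were called, all lower, with Rgs2 (-1.64), Csrnp1 (-1.23) and the kinase gene Pim1 (-0.96). Of all kept genes 3.14% were called there in either direction. The Rgs2 call (adjusted p = 0.0499) ended without any 1 of 10 arrays and that of Csrnp1 without any 1 of 4, while that of Pim1 held in every alternative run.

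Upstream, 32 genes of the MAP kinase to SRF pathway were kept, with 4 called higher and 7 lower after loss of both forms, 0 and 5 against wt+/mt-, and 1 and 6 against wt-/mt+. For all kept genes the shares in the same order were 12.2% higher and 9.94% lower, 6.35% and 8.23%, and 9.71% and 11.1%. Rasgrp1, a Ras exchange factor of lymphocytes, fell by 1.17 (SE 0.30, adjusted p = 0.0199) after loss of both forms, and Elk3, an SRF partner, fell by 1.08 (SE 0.23, adjusted p = 0.009). The Ras exchange factor gene Sos2 fell by 0.99 (adjusted p = 0.0435), which was lost when any 1 of 11 arrays was dropped, and the kinase gene Map3k1 fell by 0.91 (SE 0.15, adjusted p = 0.0027). With the mean of all probe sets, the calls of Rasgrp1 and Map3k1 after loss of both forms ended. Mef2a, a factor related to SRF, fell by 0.81 against wt+/mt- (SE 0.12, adjusted p = 0.00261), and Rps6ka5, a kinase that acts on CREB, fell by 0.89 against wt-/mt+ (SE 0.13, adjusted p = 0.00122). Of 15 genes for DUSP phosphatases and Sprouty inhibitors, which restrain these kinases as Dusp1 does, 0 were called higher and 3 lower after loss of both forms: Spry2 fell by 1.37 (SE 0.35, adjusted p = 0.0188), Dusp2 fell by 1.02 (SE 0.31, adjusted p = 0.0368) and Dusp14 fell by 0.70 (SE 0.21, adjusted p = 0.034). Called lower against wt+/mt- was 1 of the 15 (Spry2, -1.63), and 1 against wt-/mt+ (Dusp14, -1.03).

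Downstream of transcription, of 14 genes of AU-rich mRNA decay 0 were called higher and 3, 2 and 4 lower in the same order of comparisons. They included all 3 measured genes of the family whose proteins bind AU-rich elements such as that of Fos mRNA: after loss of both forms Zfp36l1 fell by 1.26 (SE 0.15, adjusted p = 0.000523), Zfp36 fell by 1.26 (SE 0.32, adjusted p = 0.0184) and Zfp36l2 fell by 0.67 (SE 0.12, adjusted p = 0.00306), although with the mean of its probe sets the Zfp36l2 change was -0.07 and not called. The fourth gene called against wt-/mt+ was the deadenylase gene Cnot6l (-0.36, adjusted p = 0.0468), a call that 9 of the 12 arrays, each left out in turn, could end. Of 11 heat shock genes, which often rise with handling of cells, 2 were called higher after loss of both forms, Bag3 (0.86, SE 0.19, adjusted p = 0.00962) and Hspd1 (0.56, adjusted p = 0.0497), 0 against wt+/mt- and 1 against wt-/mt+ (Bag3). For all kept genes the shares in the same order were 12.2% higher and 9.94% lower, 6.35% and 8.23%, and 9.71% and 11.1%. With 1 weight for each genotype, 23 of the 36 calls in these 7 lists held after loss of both forms, 11 of 17 against wt+/mt- and 16 of 29 against wt-/mt+. Zfp36l2 (adjusted p = 0.0528) and Dusp14 (0.0843) were among those whose call after loss of both forms ended. Of the genes of these lists named for that comparison, Maf, Rgs2, Csrnp1, Elk3, Map3k1, Zfp36l1, Zfp36l2 and Bag3 stayed called whichever 1 array was left out. The call ended for 2 of the 12 arrays with Zfp36, Rasgrp1 and Nfkbid, for 3 with Batf, Id2 and Spry2, for 5 with Dusp14, for 9 with Dusp2 and for 11 with Hspd1. Of the genes named against wt+/mt-, the calls of Klf2, Mcl1, Mef2a and Spry2 ended without both arrays of high actin ratio, and that of Maf did not. Against wt-/mt+, the Mafk call ended for 8 of the 12 arrays left out, and those of Nab2, Rps6ka5, Dusp14 and Bag3 for 0.

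**Figure D5:**
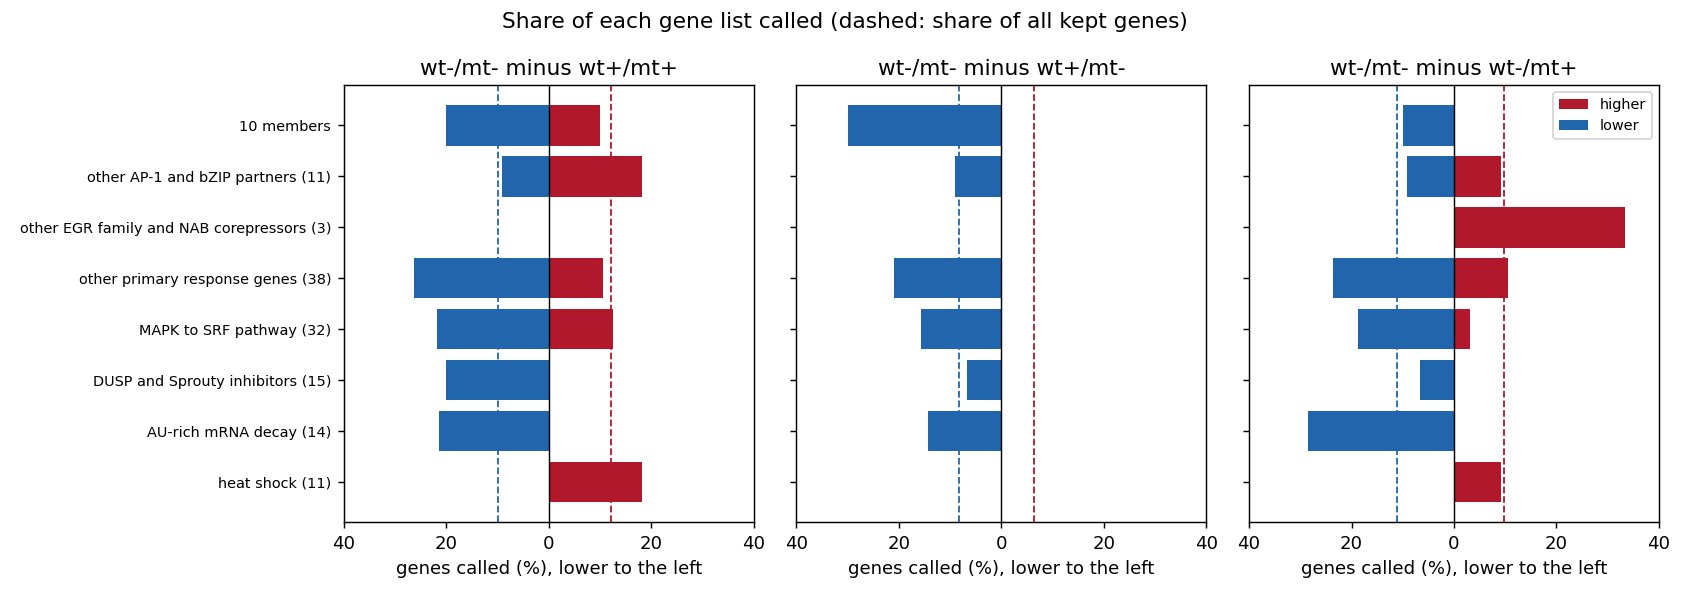
Share of genes called higher (red, right) and lower (blue, left) in percent of the kept genes of each list, with the number kept in parentheses, for the same 3 comparisons. Dashed lines are the shares of all 11457 kept genes, such as 9.94% lower and 12.2% higher for wt-/mt- minus wt+/mt+, where 10 of 38 other primary response genes were lower.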

How the data were processed

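Deposited were log2 levels, 1 for each probe set. The authors ran RMA, of unstated version, per the submitters' processing notes. The labels' protocols name a Qiagen kit for total RNA and an Affymetrix 3′ IVT kit for the cDNA. Base 2 is that of usual RMA output and suits the range of 3.09 to 15.57. Because RMA scales arrays to each other, a shift shared by most genes would be lost.

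Of 45101 probe sets, GEO's platform annotation gave 34958 a single gene and 932 several, and 9211 were not named. Symbols, positions and promoter windows came from RefSeq tables of GRCm38.p6. The probe set of highest mean stood for its gene. R 4.3.3 with limma 3.58.1 fitted 1 mean for each genotype over all 12 arrays (lmFit, eBayes), with Benjamini-Hochberg adjustment over 11457 kept genes, and the same fit was run over all named probe sets. The fit was tested on simulated data that gave a gene the same spread in every genotype, so the wider spread of wt-/mt- was not covered. No 2 arrays were identical (0 pairs), and their number limits the precision. Of 200 listed genes outside the members, 181 were named on the array. The members are all named, along with up to 4 called genes a list in each comparison of wt-/mt- cells and in the interaction, by size of change, and Foxo1. The members and lists were chosen with earlier results of these data known. Alternatives covered the filter, scaling, weights, probe set choice, centring per chromosome, the actin ratio, the samples fitted, the eBayes prior and leaving out each array.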

Additional observations from a re-analysis of the deposited data

Results flagged for a closer look

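Fosb was picked out by a rule on single arrays. All 3 wt+/mt- arrays lay above the wt+/mt+ mean, and all 3 wt-/mt- arrays lay below the wt-/mt+ mean. The mean changes of Fos, Jun, Junb, Jund, Egr2 and Dusp1 also differed in sign between these comparisons, but not on every single array. With the wild-type form present, the Fosb change with loss of the mutant form was 0.32, and without it -0.54. The interaction was -0.86 (log2, SE 0.39, adjusted p = 0.273 in limma's fit over all kept genes), so the difference did not pass the test.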

How the results depend on the processing

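The count of members called was recomputed for 8 tests under 22 alternatives, 12 of which left out 1 array (21 for the interaction and the F test, which have no fit with only the genotypes compared). With the mean of all probe sets Egr2 did not pass the filter and was not tested, so the counts there do not bear on it. For loss of both forms (3 with all settings as in the report), 0 members were called with 1 weight for each genotype, with the mean of all probe sets, and with only the genotypes compared, and leaving out 1 array gave 0 to 5. Against wt+/mt- (3) the count was 0 with 1 weight for each genotype, the actin ratio as a covariate, both high-actin arrays left out, or only the genotypes compared. It was 1 with the mean of all probe sets, and 0 to 5 leaving out 1 array. Against wt-/mt+ (1) it was 0 with 1 weight for each genotype, the mean of all probe sets, or only the genotypes compared, 2 when centred per chromosome, and 0 to 2 leaving out 1 array. For loss of the mutant form with the wild-type form present (0) it was 1, Egr3, with 1 weight for each genotype and with only the genotypes compared, and 0 to 1 leaving out 1 array. The mutant form alone against the wild-type form alone, and the interaction, gave 0 to 1 leaving out 1 array. The F test (3) gave 1 with 1 weight for each genotype or the actin covariate, 0 with the mean of all probe sets or both high-actin arrays left out, and 0 to 5 leaving out 1 array. Calls over all kept genes also moved, as given above for the weights and for only the genotypes compared. With the mean of all probe sets they were 2340, 1529 and 2125 of 10376 genes in the 3 comparisons of wt-/mt- cells. For loss of the mutant form with the wild-type form present, 574 kept genes were called with only the genotypes compared. The cause was not tested.

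Among changes not called with all arrays but called under at least 1 alternative, those that turned sign were Jun against wt-/mt+ (-0.118 without wt-/mt- replicate 2, 0.582 without replicate 1), Junb after loss of both forms (0.006 without replicate 3, -0.733 without replicate 2) and Ier2 against wt-/mt+ (-0.001 and -0.16 without replicates 1 and 2, 0.755 without replicate 3). Of 70 member changes, 50 were called under no setting, and 62 of their 1088 alternative values had the other sign. No called change of a member turned sign under the alternatives in which it was tested. No paired analysis was possible because the labels give no 2 genotypes a common array number.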
